A study of Homo sapiens with 27 samples.

Results

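Interferon-stimulated effector genes are the genes whose products carry out the antiviral state. The 50 members described here were chosen by gene symbol, and all 50 had a row among the 26485 genes counted by RNA-seq. The cells were T47D, an established luminal breast cancer line that keeps its own wild-type GATA3, a transcription factor of the mammary epithelium. They had been transduced with a lentiviral pHAGE vector and selected with puromycin. The control pool carried the empty vector. The other pools carried a Ty1-tagged truncation mutant of GATA3, either the splice-site deletion mutant Splice del or the frameshift mutants C321fs and A333fs. All 4 pools thus shared the transduction and the selection, and the control differed by having no insert. Each line was 1 selected pool sequenced as 3 libraries. The p-values therefore measure the spread between libraries, which may be technical, and whatever else set a pool apart cannot be told apart from its GATA3 mutant. The growth medium given in the sample descriptions differs from that in the study's methods, so the medium of these cells is not settled.

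Interferons are secreted proteins that bind receptors on the cell surface and signal to the nucleus through kinases bound to these receptors. Transcription of the target genes then rises through a DNA element near them, the interferon-stimulated response element (ISRE), which IRF9 helps to bind. The targets include RNA-binding proteins that block viral translation, synthetases that set off RNA decay, the ubiquitin-like protein ISG15 with the enzymes that attach and remove it, ADP-ribosyltransferases, membrane proteins that hold viruses back at entry or release, and GTPases that trap viral particles. Many of them also respond to cytosolic nucleic acid, without a new round of interferon.

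The letters of the ISRE were searched in the RefSeq promoters (build GRCh38.p14), which run from 250 bases before to 50 after a transcription start. The motif searched, on both strands, was GAAA, any 2 bases and GAAA again, and a gene counted once if any of its promoters held it. Of the 41 members with a promoter, 28 (68.3%) held a match, while 4.38% of all 27305 genes with a promoter and 3.79% of the 10620 such genes that were tested did. TTCNNNGAA, the letters of the gamma-activated site, was found in 11 members (26.8%) and in 9.38% of all genes. In 5 members a match to one motif shared bases with a match to the other. An ISRE match was held by 15 of the 20 members with a promoter that were called in at least 1 comparison. Of the 18 with a promoter that were tested and not called, 10 held one. The called members OAS1, HERC6, SAMD9L, SP100 and XAF1 held none, and SAMD9L and SP100 were called in every mutant line. The windows below show only members picked from those with a match, read 5′ to 3′ on the strand of the gene, with the ISRE match in capitals. Not every match is marked: IFI6 had 3, OAS3 had 2 and IFIT5 had 3. Matches spread too far for a single window, or running past the start, stand in lower case or outside it. Where the match lies on the other strand it reads TTTC, 2 bases and TTTC. Those of IFIT1, IFIT3, IFIT5, ISG15, PARP14, IFITM3 and IFI6 belong to members that rose in every mutant line, that of IFI27 to the member with the largest difference between mutant lines, and those of OAS3 and BST2 to members that were called in no comparison.
IFIT1, chr10:89392487-89392549, plus strand: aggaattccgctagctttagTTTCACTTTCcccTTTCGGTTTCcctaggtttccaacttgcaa
IFIT3, chr10:89327821-89327904, plus strand: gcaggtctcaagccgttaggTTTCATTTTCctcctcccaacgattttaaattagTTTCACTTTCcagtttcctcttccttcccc
IFIT5, chr10:89414503-89414567, plus strand: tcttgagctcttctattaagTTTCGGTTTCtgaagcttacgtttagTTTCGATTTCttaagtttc
ISG15, chr1:1013364-1013419, plus strand: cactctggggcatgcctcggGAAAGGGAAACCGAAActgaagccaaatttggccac
PARP14, chr3:122680790-122680838, plus strand: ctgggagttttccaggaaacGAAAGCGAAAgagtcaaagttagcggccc
IFITM3, chr11:320866-320932, minus strand: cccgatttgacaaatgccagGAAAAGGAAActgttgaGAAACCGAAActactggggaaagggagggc
IFI6, chr1:27672256-27672305, minus strand: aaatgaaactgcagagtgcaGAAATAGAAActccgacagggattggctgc
IFI27, chr14:94110608-94110670, plus strand: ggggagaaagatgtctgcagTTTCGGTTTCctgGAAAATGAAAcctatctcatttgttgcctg
OAS3, chr12:112938442-112938473, plus strand: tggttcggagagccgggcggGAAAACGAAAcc
BST2, chr19:17405725-17405780, minus strand: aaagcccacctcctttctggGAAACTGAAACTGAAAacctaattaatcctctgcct

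The study counted read pairs on genes with featureCounts, without using the strand. Libraries held 27872208 to 36788024 counted fragments. Levels are given here as CPM, the counts of a library scaled to a fixed total after TMM normalization. A change is a log2 fold change with its standard error (SE) from edgeR's quasi-likelihood test, fitted to all 12 libraries. A call needed a fold change over 1.5 and a p below 0.01 after Benjamini-Hochberg adjustment over the 14789 genes tested. The filter on low counts kept 47 members and left out IFI44, IFI44L and RTP4.

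To ask which effector genes differed between each mutant line and control, the calls were counted first. Splice del cells had 20 members higher than control (6.21% of all tested genes were called higher) and none lower (4.53% of all tested genes). C321fs cells had 20 higher (4.63% of all genes) and none lower (2.26%). A333fs cells had 12 higher (5.46% of all genes) and none lower (6.81%). DESeq2 called 21, 19 and 14 members higher and none lower. At an unadjusted p below 0.05, edgeR had 1, 1 and 6 members lower in the 3 lines. Here and below, no share of all genes is given for DESeq2 calls or for an unadjusted p. Those counts alone therefore do not set the members apart from other genes. In Splice del, C321fs and A333fs cells the median log2 fold change of the 47 members was 0.59, 0.64 and 0.27, while that of all tested genes was 0.03, 0.02 and 0.01.

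Every library of a line exceeded every control library for 33 members in Splice del (31.7% of all genes), 32 in C321fs (27.3%) and 19 in A333fs cells (31.2%). Every library lay below control for 1, 1 and 7 members, and for 4628, 3955 and 5069 of the 14789 genes tested. In A333fs, PML (-0.35 ± 0.08), TRIM14 (-0.25 ± 0.07) and IFI35 (-0.22 ± 0.06) were among these 7 and missed only the fold limit (edgeR, adjusted p = 0.00102, 0.00783 and 0.0083), as did TRIM25. In all, 11 members were called higher in every mutant line: IFIT1, IFIT2, IFIT3, IFIT5, OASL, ISG15, PARP14, IFITM3, SAMD9L, SP100 and IFI6. A further 7 were called in Splice del and C321fs: OAS1, OAS2, IFITM1, MX1, IFI27, XAF1 and LGALS3BP. DTX3L was called in Splice del and A333fs, PARP9 in Splice del, and HERC5 and HERC6 in C321fs. The lines share the control libraries, so these lists are not independent of each other. Across the 4 lines, 31 members differed in edgeR's F-test at an adjusted p below 0.01 (56.2% of all genes did). In bulk RNA, more cells with the RNA and more RNA per cell cannot be told apart.

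**Figure D1:**
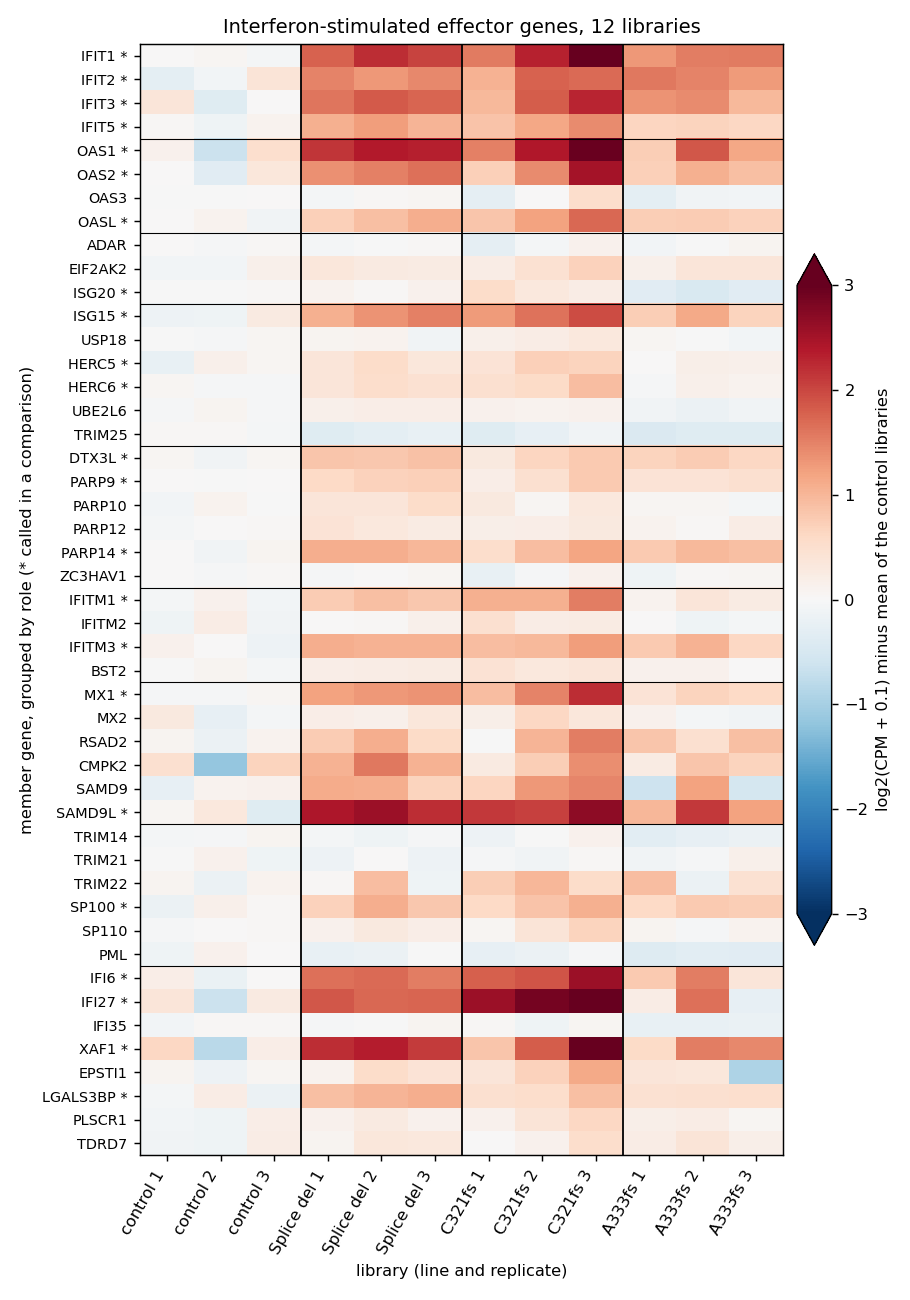
Level of the 47 tested members in each library, as log2(CPM + 0.1) minus the mean of the control libraries, with genes in rows by role and libraries in columns. Red cells fill the IFIT, OAS1, OAS2, MX1, SAMD9L, IFI6, IFI27 and XAF1 rows of Splice del and C321fs, C321fs replicate 3 holds the highest values of its line for 40 of the 47 members, and the A333fs columns are paler.

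The IFIT proteins bind viral RNA that lacks the full cap of host messages and keep it from being translated. Their genes lie side by side on chromosome 10, from IFIT2 at chr10:89301949-89309276 to IFIT5 at chr10:89414568-89421002. All 4 rose in all 3 mutant lines. IFIT1 stood at 2.88, 2.98 and 2.78 CPM in the control libraries, at 10.0, 13.7 and 12.1 with Splice del, at 8.68, 14.6 and 27.7 with C321fs and at 7.20, 8.49 and 8.72 with A333fs. No mutant library came near the control libraries, and C321fs replicate 3 was the highest of all. IFIT1 rose by log2 fold changes of 2.04 ± 0.33 (SE) with Splice del, 2.56 ± 0.32 with C321fs and 1.496 ± 0.34 with A333fs (edgeR, adjusted p = 9e-05, 1.87e-05 and 0.00134). IFIT2 had 0.950, 1.12 and 1.597 CPM in control, 3.51, 3.07 and 3.41 with Splice del, 2.59, 4.30 and 4.08 with C321fs and 3.81, 3.51 and 3.05 with A333fs. No mutant library overlapped with control, and the log2 fold changes were 1.45 ± 0.21, 1.57 ± 0.21 and 1.497 ± 0.21 (edgeR, adjusted p at most 4.48e-05).

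IFIT3, the partner that stabilizes IFIT1, went from 1.46, 0.834 and 1.11 CPM in control to 3.59, 4.23 and 3.97 with Splice del, 2.25, 4.13 and 5.80 with C321fs and 2.97, 3.13 and 2.26 with A333fs. The groups did not overlap with control, and the log2 fold changes were 1.79 ± 0.30, 1.83 ± 0.30 and 1.29 ± 0.31 (edgeR, adjusted p = 0.000117, 0.000149 and 0.00212). IFIT5 had 4.65, 4.10 and 4.83 CPM in control, 9.49, 10.9 and 9.26 with Splice del, 8.31, 10.3 and 12.2 with C321fs and 7.13, 7.18 and 6.96 with A333fs. Its A333fs libraries lay below every library of the other mutant lines, at a log2 fold change of 0.65 ± 0.13 against control, next to 1.13 ± 0.13 and 1.18 ± 0.13 (edgeR, adjusted p = 0.000632, 4.3e-06 and 6.48e-06). Without control replicate 2, the A333fs calls were lost for IFIT3 (log2 fold change 1.11, edgeR, adjusted p = 0.0171) and for IFIT5, whose 0.58 then missed the fold limit. IFIT5 also missed it in A333fs, at 0.32, once the library's own trend with GC content and with the length of the exons was taken out.

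OAS1, OAS2 and OAS3 synthesize short oligoadenylates that switch on RNase L, and OASL is a relative that instead helps the RNA sensor RIG-I. OAS1, OAS3 and OAS2 follow each other on chromosome 12, from chr12:112906934 to chr12:113011723. Of the 4 members, 3 were called in Splice del and C321fs cells and OASL in A333fs cells. Whether OAS1 and OAS2 were called in A333fs depended on the processing. OAS1 stood at 1.05, 0.577 and 1.39 CPM in control, 4.52, 5.35 and 5.19 with Splice del, 2.89, 5.48 and 8.10 with C321fs and 1.65, 3.70 and 2.23 with A333fs. All mutant libraries lay above the control libraries, and the A333fs libraries were the nearest to them. OAS1 rose by a log2 fold change of 2.32 ± 0.38 in Splice del and 2.45 ± 0.38 in C321fs cells (edgeR, adjusted p = 0.000107 and 0.000102). In A333fs it was 1.34 ± 0.42, at an adjusted p of 0.0122 that missed the threshold by edgeR, and without A333fs replicate 1 it was called at 1.56 (adjusted p = 0.00539). OAS1 was also called in A333fs in 7 of 10 other fits, at 1.34 with DESeq2 and with RLE normalization, 1.45 with upper-quartile normalization, and with no filter, an adjusted p below 0.05, the replicate block or the pair's libraries alone.

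OAS2 had 2.82, 2.18 and 3.54 CPM in control, 7.40, 8.19 and 8.99 with Splice del, 4.63, 7.59 and 16.1 with C321fs and 4.65, 5.93 and 5.28 with A333fs. It was called in Splice del (1.52 ± 0.34, edgeR, adjusted p = 0.0014) and C321fs cells (1.73 ± 0.34, adjusted p = 0.000645), and the Splice del call was lost without control replicate 2 (1.36, edgeR, adjusted p = 0.0122). The C321fs change of OAS2 was 1.10 without C321fs replicate 3, and still called. In A333fs the change of OAS2 was 0.90 ± 0.36 (edgeR, adjusted p = 0.0403), which was not called. It was called there in 3 of 10 other fits, with no filter, an adjusted p below 0.05 or the pair's libraries alone. OASL had 1.93, 2.08 and 1.77 CPM in control, 3.20, 3.66 and 4.21 with Splice del, 3.53, 4.58 and 6.61 with C321fs and 3.26, 3.35 and 3.17 with A333fs. The groups stayed apart from control, with log2 fold changes of 0.92 ± 0.20, 1.34 ± 0.20 and 0.75 ± 0.21 (edgeR, adjusted p = 0.00134, 7.4e-05 and 0.00562). The A333fs call of OASL was lost without any 1 of control replicates 1, 2 and 3 and A333fs replicates 1 and 3, at log2 fold changes of 0.69 to 0.81 and adjusted p of 0.0124 to 0.025 by edgeR. OAS3, which lies between OAS1 and OAS2, ran from 98.6 to 174 CPM over the 12 libraries, was the most abundant of the 4 and was called nowhere.

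ISG15 is a small ubiquitin-like modifier. HERC5 attaches it to proteins with the carrier enzyme UBE2L6, HERC6 is its close relative, USP18 removes it, and TRIM25 is a ubiquitin ligase in the same system that acts on RIG-I. The modifier itself rose in every mutant line, from 2.68, 2.73 and 3.58 CPM in control to 6.32, 7.68 and 8.67 with Splice del, 7.31, 9.33 and 11.9 with C321fs and 5.03, 6.70 and 4.81 with A333fs. Its log2 fold changes were 1.33 ± 0.19, 1.66 ± 0.19 and 0.88 ± 0.20 (edgeR, adjusted p = 3.97e-05, 9.26e-06 and 0.00144), and the last was lost without control replicate 2 (0.82, adjusted p = 0.0103). HERC5 had 6.14, 7.99 and 7.54 CPM in control, 9.24, 10.6 and 9.16 with Splice del, 9.56, 11.9 and 11.4 with C321fs and 7.26, 8.14 and 8.04 with A333fs. HERC6, beside it on chromosome 4, had 21.2, 19.7 and 19.9 CPM in control, 26.0, 29.4 and 28.1 with Splice del, 28.4, 30.4 and 38.8 with C321fs and 19.9, 22.7 and 21.9 with A333fs.

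Both ligases were called in C321fs cells, HERC5 at 0.60 ± 0.11 and HERC6 at 0.68 ± 0.10 (edgeR, adjusted p = 0.000472 and 6.28e-05). In Splice del both missed only the fold limit, at 0.42 ± 0.11 and 0.45 ± 0.10 (edgeR, adjusted p = 0.00504 and 0.00119). The C321fs changes sit close to the fold limit. The HERC5 call was lost without control replicate 1 (0.49), C321fs replicate 2 (0.53) or C321fs replicate 3 (0.57), under DESeq2 and after removal of the GC and length trend, and that of HERC6 without C321fs replicate 3 (0.53) and after the same removal. USP18 ran from 9.96 to 13.4 CPM, UBE2L6 from 58.3 to 76.7 CPM and TRIM25 from 147 to 205 CPM, and none of the 3 was called. TRIM25, singled out after its values were seen, had every mutant library below every control library. Its log2 fold changes against control, -0.29 ± 0.06, -0.23 ± 0.06 and -0.39 ± 0.06, had adjusted p of 0.00122, 0.00692 and 9.06e-05 by edgeR and did not reach the fold limit.

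The ADP-ribosyltransferases PARP9 and PARP14 and the ubiquitin ligase DTX3L, which works as a pair with PARP9, are neighbours on chromosome 3. PARP14 rose in all 3 lines, from 21.3, 19.6 and 22.3 CPM in control to 45.1, 44.7 and 42.1 with Splice del, 30.4, 39.8 and 48.2 with C321fs and 36.2, 41.5 and 39.2 with A333fs. The log2 fold changes were 1.06 ± 0.12, 0.91 ± 0.12 and 0.89 ± 0.12 (edgeR, adjusted p = 3.8e-06, 2.97e-05 and 1.53e-05), and the 3 calls held without any 1 library. DTX3L had 22.6, 20.1 and 22.6 CPM in control, 39.0, 38.5 and 40.2 with Splice del, 26.5, 34.1 and 37.5 with C321fs and 34.7, 36.7 and 33.3 with A333fs. It was called in Splice del (0.85 ± 0.10, edgeR, adjusted p = 4.84e-06) and A333fs cells (0.68 ± 0.10, adjusted p = 2.89e-05). In C321fs its 0.58 ± 0.10 (edgeR, adjusted p = 0.000212) fell just short of the fold limit and passed it without control replicate 1 (0.61), control replicate 3 (0.61) or C321fs replicate 1 (0.72). The A333fs call was lost after removal of the GC and length trend (0.42).

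PARP9 had 33.3, 32.6 and 33.2 CPM in control, 50.2, 53.7 and 54.4 with Splice del, 38.1, 46.3 and 57.1 with C321fs and 43.7, 44.3 and 46.3 with A333fs. Every mutant library lay above control, and the call was made in Splice del (0.68 ± 0.10, edgeR, adjusted p = 4.93e-05), where it was lost after removal of the GC and length trend (0.47). In C321fs (0.51 ± 0.10) and A333fs (0.44 ± 0.10), PARP9 missed only the fold limit (edgeR, adjusted p = 0.000717 and 0.00157). Without C321fs replicate 1 it was also called in C321fs (0.65, edgeR, adjusted p = 6.29e-06). DTX3L and PARP9 lie head to head and share 3.21% and 2.32% of their exon length, on opposite strands, and the counting did not use the strand. PARP12, at 22.1 to 30.3 CPM, PARP10, at 49.3 to 77.2 CPM, and the zinc-finger antiviral protein gene ZC3HAV1, at 51.8 to 66.0 CPM, were not called. In Splice del, PARP12 (0.33 ± 0.07) and PARP10 (0.43 ± 0.08) missed only the fold limit (edgeR, adjusted p = 0.000776 and 0.000264).

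**Figure D2:**
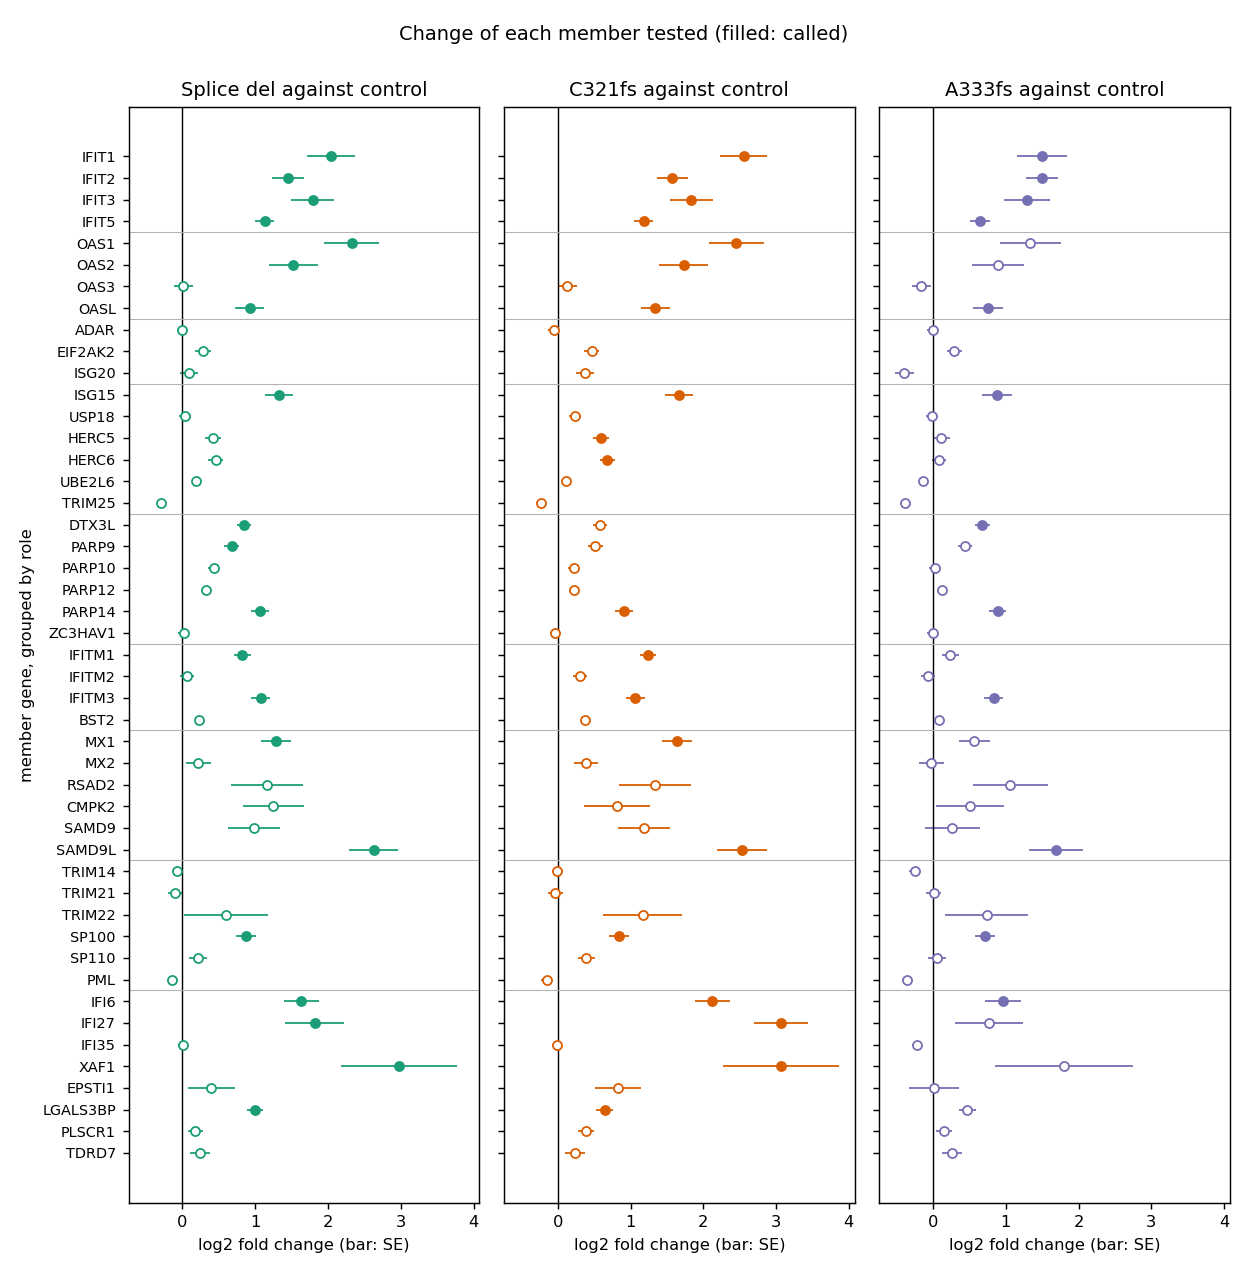
Log2 fold change against control of the 47 members tested, with 1 panel per mutant line, bars of 1 SE and filled points for called members. Filled points lie to the right of 0 in each panel, 20 with Splice del, 20 with C321fs and 12 with A333fs, and OAS3, ADAR, ZC3HAV1 and IFI35 sit near 0 in Splice del and C321fs.

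IFITM1, IFITM2 and IFITM3 are small membrane proteins that hinder the fusion of viruses with the cell, and BST2 (tetherin) holds budding virus on the surface. IFITM3 rose in all 3 lines, from 4.34, 4.01 and 3.58 CPM in control to 8.49, 8.33 and 8.29 with Splice del, 7.58, 7.91 and 9.53 with C321fs and 6.87, 8.33 and 6.11 with A333fs. Its log2 fold changes were 1.07 ± 0.13, 1.07 ± 0.13 and 0.83 ± 0.13 (edgeR, adjusted p = 5.63e-06, 1.26e-05 and 5.13e-05). IFITM1, its neighbour on chromosome 11, had 10.7, 12.3 and 10.5 CPM in control, 18.9, 20.7 and 19.5 with Splice del, 23.4, 23.5 and 32.2 with C321fs and 12.1, 14.3 and 13.2 with A333fs. It was called in Splice del (0.82 ± 0.12, edgeR, adjusted p = 2.85e-05) and C321fs cells (1.24 ± 0.11, adjusted p = 1.63e-06), while the A333fs libraries overlapped with control (0.24 ± 0.12, edgeR, adjusted p = 0.0957). IFITM2, at 32.9 to 50.8 CPM, and BST2, at 200.1 to 282 CPM, were not called. BST2, singled out after its values were seen, missed only the fold limit in Splice del (0.22 ± 0.05) and C321fs (0.38 ± 0.05). Its adjusted p there was 0.00249 and 5.25e-05 by edgeR, and in A333fs the change was 0.09 ± 0.05 (adjusted p = 0.164). The 3 IFITM genes are close copies, and fragments that could not be placed on 1 of them were not counted.

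MX1 and MX2 encode dynamin-like GTPases that trap viral particles. The genes are neighbours on chromosome 21. MX1 had 24.5, 24.3 and 26.0 CPM in control, 57.9, 61.1 and 63.5 with Splice del, 47.4, 70.0 and 115 with C321fs and 33.2, 39.7 and 37.8 with A333fs. All mutant libraries exceeded control. The fitted log2 change was 1.29 ± 0.21 in Splice del and 1.64 ± 0.21 in C321fs cells (edgeR, adjusted p = 0.000102 and 2.21e-05), and 0.57 ± 0.21 in A333fs, which was not called (adjusted p = 0.0298). In A333fs, MX1 was called in 3 of 10 other fits, with upper-quartile normalization, no filter or the pair's libraries alone. MX2 ran from 1.80 to 3.36 CPM and was not called.

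SAMD9 and SAMD9L, a pair of related restriction factors, are neighbours on chromosome 7. SAMD9L rose in all 3 lines, from 0.407, 0.513 and 0.278 CPM in control to 2.53, 2.78 and 2.16 with Splice del, 2.04, 1.94 and 3.05 with C321fs and 0.871, 2.04 and 1.03 with A333fs. These changes were among the largest of the set, at 2.62 ± 0.33, 2.53 ± 0.34 and 1.69 ± 0.37 on the log2 scale (edgeR, adjusted p = 1.13e-05, 3.31e-05 and 0.0011). SAMD9, singled out after its values were seen, had 3.73, 4.81 and 4.86 CPM in control, 9.68, 9.54 and 7.07 with Splice del, 6.97, 11.2 and 12.4 with C321fs and 2.84, 10.3 and 3.05 with A333fs. A333fs replicate 2 stood at the level of the other mutant lines and the other A333fs libraries lay below every control library. No comparison called SAMD9. RSAD2 (viperin), which makes a nucleotide that stops viral polymerases, and CMPK2, which lies beside it on chromosome 2, stayed low, at 0.128 to 0.648 and 0.0962 to 1.21 CPM, and were not called.

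Within the TRIM and nuclear body genes, SP100, a scaffold of the nuclear bodies that silence viral DNA, rose in all 3 lines. It had 5.33, 6.70 and 6.22 CPM in control, 9.78, 13 and 10.7 with Splice del, 9.16, 11 and 12.7 with C321fs and 9.23, 10.6 and 10.2 with A333fs. The groups did not overlap with control, and the log2 fold changes were 0.87 ± 0.13, 0.84 ± 0.13 and 0.72 ± 0.14 (edgeR, adjusted p = 5.87e-05, 0.000131 and 0.000294). After removal of the GC and length trend, its calls were lost in Splice del (0.58) and A333fs (0.42). The other 5 members were not called: PML, the organizer of the same bodies, at 26.4 to 37.8 CPM, SP110 at 9.84 to 16.2 CPM, TRIM14 at 26.1 to 35.6 CPM, TRIM21 at 7.48 to 9.33 CPM and TRIM22 at 0.0957 to 0.347 CPM.

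IFI6 and IFI27 encode small hydrophobic proteins of the endoplasmic reticulum and mitochondria. IFI6 had 13.9, 10.4 and 12.2 CPM in control, 38.3, 39.6 and 35.1 with Splice del, 42.1, 45.0 and 71.7 with C321fs and 20.8, 34.9 and 15.6 with A333fs. It rose in all 3 lines, by log2 fold changes of 1.63 ± 0.24, 2.12 ± 0.24 and 0.97 ± 0.25 (edgeR, adjusted p = 4.48e-05, 8.52e-06 and 0.00313), and the A333fs call was lost without control replicate 2 (0.86, adjusted p = 0.0216) or control replicate 3 (0.97, adjusted p = 0.0132). IFI27 had 1.26, 0.577 and 1.18 CPM in control, 3.72, 3.40 and 3.41 with Splice del, 6.18, 7.63 and 11.4 with C321fs and 1.13, 3.22 and 0.793 with A333fs. Every C321fs library exceeded every Splice del library, and of the A333fs libraries only replicate 2 exceeded every control library. The log2 fold change of IFI27 was 1.82 ± 0.41 in Splice del (edgeR, adjusted p = 0.00154) and 3.07 ± 0.37 in C321fs cells (adjusted p = 1.43e-05). In A333fs it was 0.77 ± 0.46 (edgeR, adjusted p = 0.169) and -0.03 without A333fs replicate 2. The Splice del call was lost without control replicate 2 (1.52, edgeR, adjusted p = 0.0139). The annotation also places exons of IFI27 on a sequence outside the main chromosomes, and fragments with several places were not counted. Whether this lowered its counts was not tested.

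LGALS3BP, a secreted glycoprotein that binds galectins, had 14.7, 18.1 and 13.6 CPM in control, 28.6, 31.1 and 32.9 with Splice del, 21.4, 22.2 and 28.9 with C321fs and 21.0, 21.5 and 21.7 with A333fs. It was called in Splice del (0.99 ± 0.11, edgeR, adjusted p = 4.01e-06) and C321fs cells (0.64 ± 0.11, adjusted p = 0.000298). In A333fs it missed only the fold limit, at 0.47 ± 0.11 (edgeR, adjusted p = 0.00225). The C321fs call was lost without control replicate 3 (0.56) or C321fs replicate 3 (0.50), and without control replicate 2 the gene was also called in A333fs (0.60, edgeR, adjusted p = 0.000792). XAF1, which counters the apoptosis inhibitor XIAP, was near the limit of detection, at 0.170, 0 and 0.104 CPM in control, 0.722, 0.798 and 0.662 with Splice del, 0.213, 0.520 and 1.62 with C321fs and 0.161, 0.415 and 0.382 with A333fs. Its fitted log2 fold changes of 2.97 ± 0.79 in Splice del and 3.07 ± 0.79 in C321fs cells were called (edgeR, adjusted p = 0.00502 and 0.00457). The Splice del call was lost without control replicates 2 (2.38) or 3 (3.08) or Splice del replicates 1 (2.98) or 2 (2.90), and the C321fs call without control replicates 2 (2.47) or 3 (3.18) or C321fs replicate 3 (1.95), at adjusted p of 0.0136 to 0.0336 by edgeR. Without control replicate 1 the fitted changes of XAF1 were 3.76 and 3.86. IFI35, EPSTI1, PLSCR1 and TDRD7 were not called, at 24.8 to 30.6, 0.352 to 1.78, 21.0 to 35.4 and 6.61 to 10.4 CPM.

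The 3 members left out by the filter had at most 3 counts in every control library. IFI44 had 0, 1 and 0 counts in control, 11, 12 and 6 with Splice del, 5, 4 and 6 with C321fs and 5, 7 and 5 with A333fs. Each mutant library had more counts than each control library, and the ratio of the summed counts per library size to control was 25.6 in Splice del (exact 95% interval 4.25 to 1047), 14.5 in C321fs (2.23 to 610) and 15.8 in A333fs (2.47 to 659). These intervals cover counting error only. IFI44L had 0 counts in every control library and at most 4 in any other. RTP4 had at most 6 counts in any library, with 2 counts over the control libraries, and its ratios had intervals that included 1.

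The 3 members that edit or sense RNA or degrade it were not called against control. ADAR, which converts adenosine in double-stranded RNA, was nearly level at 243.2 to 321.2 CPM, and EIF2AK2, the kinase PKR, ran from 21.6 to 37.2 CPM. In C321fs, EIF2AK2 missed only the fold limit, at 0.47 ± 0.10 (edgeR, adjusted p = 0.00173). ISG20, an exonuclease of single-stranded RNA, had 2.71, 2.73 and 2.81 CPM in control, 2.97, 2.84 and 2.995 with Splice del, 4.05, 3.43 and 3.21 with C321fs and 2.16, 1.98 and 2.14 with A333fs. The C321fs libraries all lay above control and the A333fs libraries all lay below it, at log2 fold changes of 0.38 ± 0.12 and -0.39 ± 0.13 that were not called (edgeR, adjusted p = 0.0163 and 0.0161).

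The tested members were also split by their level in control cells. Of the 24 tested members with the lower level in control, at 0.0913 to 10.1 CPM, 13, 14 and 9 were called in the 3 lines, in the order Splice del, C321fs and A333fs, with median log2 fold changes of 1.10, 1.18 and 0.74. Of the 23 with the higher level, at 10.7 to 293 CPM, 7, 6 and 3 were called, with medians of 0.22, 0.31 and 0.08. The control level enters both quantities, and this is given as a description. Per kilobase of exon, the most abundant members in control were BST2 at 205, IFITM2 at 50.0, ADAR at 41.3, UBE2L6 at 38.1 and TRIM25 at 34.8 CPM per kilobase, none of which was called against control. The tested members whose promoter held the ISRE letters were called higher in 13, 12 and 8 of 25 cases in that order, and those with a promoter that did not hold them in 4, 5 and 2 of 13. A match in letters is not evidence that a factor binds there.

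**Figure D3:**
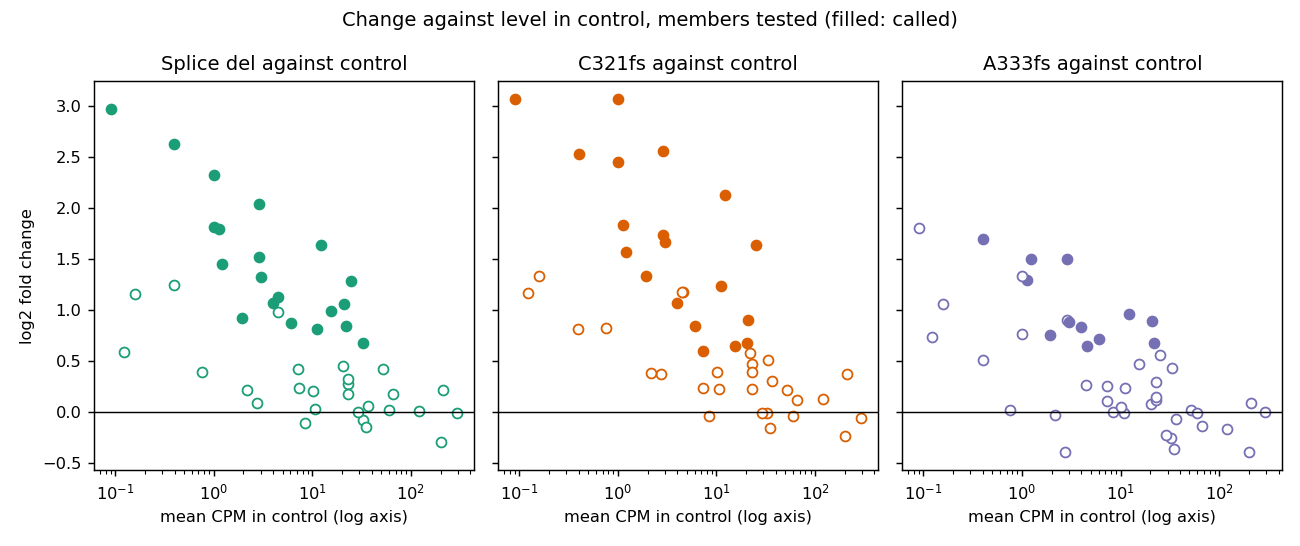
Log2 fold change against control (vertical) by mean CPM in control (horizontal, log axis) for the 47 tested members, with 1 panel per mutant line and filled points for called members. The largest changes lie at the low end of the control level, and the members above 100 CPM in control stay between -0.39 and 0.38.

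To ask whether the mutant lines differed from each other, their libraries were compared directly. A333fs cells had 8 members lower than C321fs cells (3.08% of all genes were called lower; DESeq2 called 6) and none higher (2.47%; 0 at an unadjusted p below 0.05 and 0 with DESeq2). These were IFIT1, ISG20, ISG15, HERC6, IFITM1, MX1, IFI6 and IFI27. Every A333fs library lay below every C321fs library for 20 members (21.8% of all genes). IFI27 differed most, at a log2 fold change of -2.30 ± 0.33 (edgeR, adjusted p = 9.94e-05) and of -3.10 without A333fs replicate 2, followed by IFI6 at -1.16 ± 0.23 (adjusted p = 0.00133) and MX1 at -1.07 ± 0.20 (adjusted p = 0.00103). IFITM1 was lower by -1.003 ± 0.11 (edgeR, adjusted p = 6.67e-06) and ISG20 by -0.77 ± 0.12 (adjusted p = 0.000273). The calls of IFITM1, ISG20, IFI6, MX1 and IFI27 held without any 1 library of the pair, and those of IFI6 and MX1 were lost when only the libraries of the pair were fitted.

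The remaining calls of this pair depended on single libraries and on the processing. IFIT1, at -1.06 ± 0.28 (edgeR, adjusted p = 0.00975), overlapped between the lines. Of the 6 libraries of the pair, its call held without C321fs replicate 1 and was lost without any other. Without C321fs replicates 2 (-1.15) or 3 (-0.51) or A333fs replicates 1 (-0.98), 2 (-1.05) or 3 (-1.11) its adjusted p was 0.0124 to 0.0417 by edgeR, and the call was also lost with DESeq2, with a filter of 10 counts per library and with the pair's libraries alone. ISG15, at -0.78 ± 0.17 (edgeR, adjusted p = 0.00344), lost its call without C321fs replicates 2 (-0.79) or 3 (-0.59) or A333fs replicates 1 (-0.72) or 3 (-0.69), after removal of the GC and length trend (-0.63) and with the pair's libraries alone. HERC6, at -0.60 ± 0.10 (edgeR, adjusted p = 0.000305), dropped below the fold limit without C321fs replicate 3 (-0.45) or A333fs replicate 1 (-0.55), and its call was lost with DESeq2 (-0.58), RLE or upper-quartile normalization and no filter. IFIT2, PARP14, DTX3L and SP100 showed little difference between these lines, at -0.08 ± 0.18, -0.02 ± 0.12, 0.10 ± 0.10 and -0.13 ± 0.13, and were not called.

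**Figure D4:**
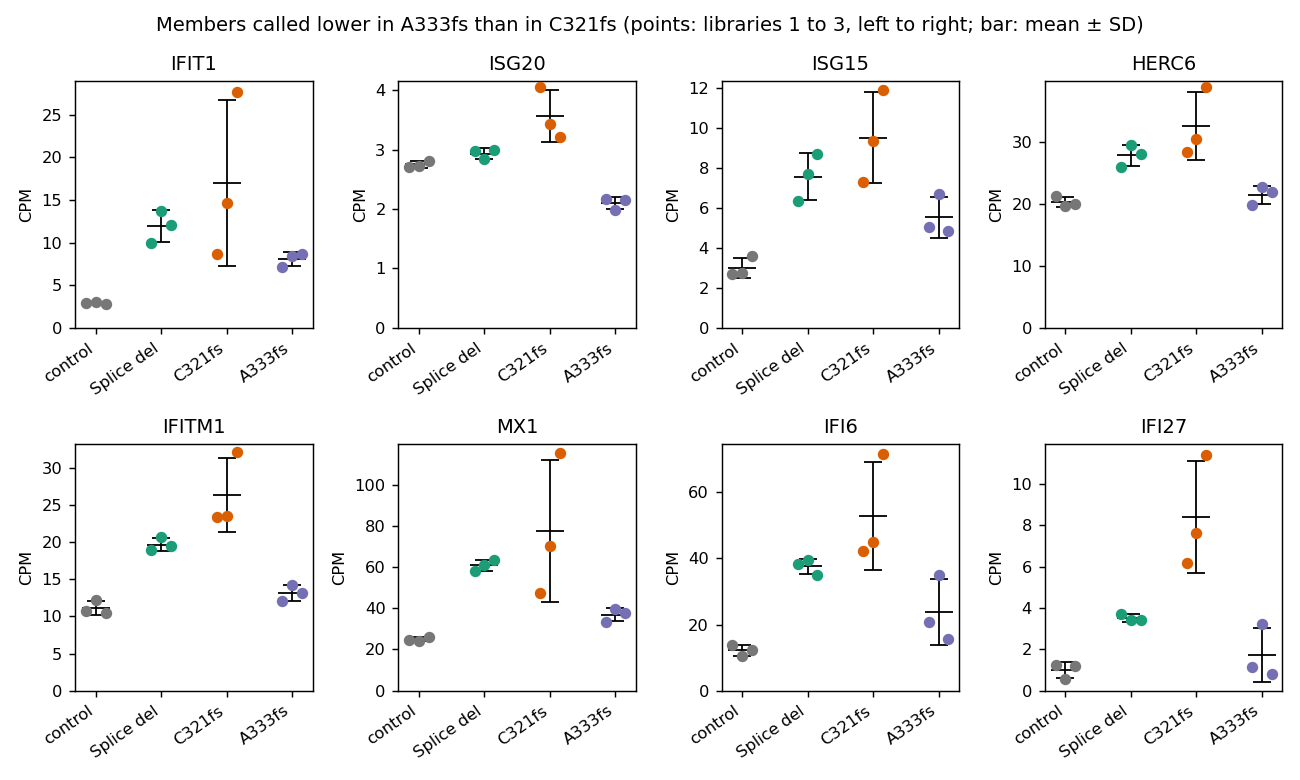
CPM of the 8 members called lower in A333fs than in C321fs cells, with a point for each of the 3 libraries of a line and bars for the mean ± SD. The A333fs points lie below all C321fs points in 7 of the 8 genes, those of IFIT1 overlap, and ISG20 is the gene in which A333fs also lies below control.

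Between Splice del and C321fs cells, no member was called by edgeR's test or by DESeq2 (0.879% of all genes were called lower and 1.76% higher), although 3 members were higher and 9 lower in Splice del at an unadjusted p below 0.05. IFI27 came nearest, at -1.25 ± 0.30 with an adjusted p of 0.0102 by edgeR. A333fs and Splice del cells also had no member called by either tool (1.97% of all genes were called lower and 1.03% higher). At an unadjusted p below 0.05, 20 members were lower in A333fs and none higher. The share of all genes at that unadjusted p was not counted for either pair, so these counts do not set the members apart. Every A333fs library lay below every Splice del library for 31 of the 47 members (24.5% of all genes). The median log2 fold change of the members was -0.24 in this pair and -0.02 over all genes. Absence of a call here does not show that the lines had equal levels.

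Libraries of a line were not alike in the members. In C321fs, replicate 3 was the highest of its line for 40 of the 47 tested members and replicate 1 the lowest for 38. Their summed level over the 50 members was 1573, 1714 and 2043 CPM for replicates 1, 2 and 3, while Splice del libraries had 1649 to 1740, A333fs libraries 1445 to 1537 and control libraries 1435 to 1463 CPM. Without C321fs replicate 3 the number of members called in C321fs was 16, and without C321fs replicate 1 it was 24. In A333fs, replicate 2 was the highest for 23 members. Leaving out control replicate 2 brought the A333fs calls from 12 to 8. The trend of log2 CPM over GC content also set the control libraries (0.107 to 0.187 per 10 percentage points) apart from the mutant libraries (-0.216 to 0.0135). With this trend and that over exon length removed, 19, 18 and 10 members were called.

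Around the effectors, 40 genes that make, sense or relay interferon were read from the same fit. None of 10 interferon genes passed the filter. IFNL1 had 7 counts in C321fs replicate 2 and at most 2 in any other library, and the other 9 had at most 3 counts in every library. Against control, the calls fell on kinases and factors and on sensors and adaptors, and on no receptor or negative regulator. Of the 10 kinases and factors, IRF9, a DNA-binding factor of the pathway, had 8.18, 8.66 and 8.68 CPM in control, 19.1, 16.7 and 20.7 with Splice del, 21.2, 24.6 and 30.3 with C321fs and 11.4, 13.4 and 10.8 with A333fs. It was called in Splice del (1.15 ± 0.13, edgeR, adjusted p = 2.9e-06) and C321fs cells (1.58 ± 0.12, adjusted p = 3.72e-07) and was lower in A333fs than in both (-0.67 ± 0.12 and -1.10 ± 0.12, adjusted p = 0.00106 and 4.92e-06). IRF7, which drives interferon genes, had 6.96 to 7.15 CPM in control, 9.96 to 11.6 in Splice del, 11.3 to 15.4 in C321fs and 6.16 to 7.98 in A333fs, and was called in the same 4 comparisons.

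IRF1, another factor that binds these elements, was called in Splice del (0.62 ± 0.11, edgeR, adjusted p = 0.000243) and A333fs cells (0.59 ± 0.11, adjusted p = 0.000327). Of the 10 sensors and adaptors, the RNA sensor DDX58 (RIG-I) had 9.70 to 11.3 CPM in control and 13.6 to 24.3 in the mutant libraries, and the endosomal sensor TLR3 had 0.208 to 0.353 CPM in control and 0.549 to 1.45 in the mutant libraries. Both were called in all 3 lines. IFIH1 and DHX58, helicases related to DDX58, were called in Splice del and C321fs. In all, 28 of the 40 genes were tested, and 7 were called higher with Splice del (6.21% of all genes), 6 with C321fs (4.63%) and 3 with A333fs (5.46%).

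Marker genes were read for the cell type. The luminal markers ESR1, FOXA1, GATA3 and keratins were abundant, and the summed level of the 11 luminal markers was 20191 to 23442 CPM in control and 13925 to 16724 in the mutant libraries. Most of this difference lay in the keratins KRT8, KRT18 and KRT19, at log2 fold changes of -1.02, -0.82 and -0.64 in Splice del cells, where all 3 were called lower. KRT8 (-0.84) and KRT18 (-0.65) were also called lower in C321fs cells, and KRT19 (-0.61) in A333fs cells. TFF1 was called higher in Splice del (0.65) and A333fs cells (1.02), and EPCAM was at 0.37 to 0.42 in the 3 lines and not called. Of 12 leukocyte markers, 2 passed the filter, PTPRC, CD3D, CD2, MS4A1 and TYROBP had 0 counts in every library, and the summed level was 3.73 to 5.61 CPM in control, 5.58 to 6.48 in Splice del, 3.95 to 4.90 in C321fs and 4.49 to 5.71 in A333fs. CD14, one of the 2, was called higher in Splice del (1.87 ± 0.18, edgeR, adjusted p = 1.03e-06) and A333fs cells (0.93 ± 0.20, adjusted p = 0.00101). Fibroblast and endothelial lists had 2 of 7 and 1 of 6 genes tested. COL3A1 was called lower in all 3 lines (-1.09, -1.03 and -1.65), COL1A1 (-0.83) and CLDN5 (-1.01) were called lower in A333fs cells, and FAP and TEK were at 0 in every library. The part of these markers in the members' changes was not tested.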

How the data were processed

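The members and gene lists were chosen with earlier results of these data known. RNA-seq counts of 12 libraries were used, and the ChIP-seq of the same lines was not used here. The authors trimmed the reads, aligned them to hg38 and deposited counts, whole numbers of properly paired fragments per gene from featureCounts, not normalized and not pooled. The counting ignored the strand and left out fragments with several places or genes. The aligner is not settled, since the submitters' processing notes and the file header name different ones. Members were matched by symbol. After filterByExpr (grouped by line) and TMM normalization, all 12 libraries entered edgeR 4.0.16 under R 4.3.3 (functions glmQLFit and glmQLFTest). The model had a coefficient for each line, no covariate, 6 comparisons and an F-test. The thresholds are those in the text of the study, whose figure legend instead gives a false discovery rate below 0.05. DESeq2 1.42.0 was an alternative, and the others are named with their results. Gene positions are those of the count table. Its coordinates were checked against hg38, and the promoter sequences equal that genome.

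Members called in at least 1 comparison are given in every library, and the others by range. A count of 3 was taken as the floor. Depth was similar between libraries, and the common dispersion was 0.00453. Replicate numbers did not pair the libraries (18 pairs of residuals with the same number, mean correlation -0.0092, 2 over 0.1). The fit was tested on simulated data before use.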

Additional observations from a re-analysis of the deposited data

Results flagged for a closer look

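Between A333fs and C321fs cells, 8 members differed by edgeR's test of that difference (adjusted p below 0.01 and fold over 1.5). The libraries of the lines did not overlap for 7 of them and overlapped for IFIT1. The log2 fold changes were -1.06 for IFIT1, -0.77 for ISG20, -0.78 for ISG15, -0.60 for HERC6, -1.003 for IFITM1, -1.07 for MX1, -1.16 for IFI6 and -2.30 for IFI27. ISG20 was the one whose difference from control had opposite signs in the lines, and neither of its differences from control was called. Groups of 3 libraries were not tested for outlying libraries.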

How the results depend on the processing

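Members called higher against control stayed within 1.5 times of the reported counts under every alternative tried: RLE and upper-quartile normalization, no filter, a minimum of 10 counts in every library, DESeq2, an adjusted p of 0.05, no fold limit, the pair's libraries alone, the GC and length trend, the replicate block and each library left out. The ranges over libraries left out were 17 to 21 in Splice del, 16 to 24 in C321fs and 8 to 14 in A333fs. With no fold limit, 26 members were called higher in Splice del and 25 in C321fs. In Splice del, C321fs and A333fs, 1, 1 and 4 were then called lower, and 13 were lower in A333fs than in C321fs. That number was 4 with the pair's libraries alone and 5 to 13 with a library left out. In A333fs against Splice del, 5 members were called lower with no filter, 5 at an adjusted p of 0.05, 5 with no fold limit, 3 with the pair's libraries, 2 with the GC and length trend removed, 2 with the replicate block and 0 to 6 with a library left out. In Splice del against C321fs, 1 member was called lower under each of RLE, upper-quartile, no filter, adjusted p of 0.05, the trend removed and the pair's libraries, and 0 to 3 with a library left out. Its median of -0.13 turned to 0.05 without C321fs replicate 3. Members that differed among the lines numbered 27 to 37. With the replicate block, 20, 21 and 13 members were called against control and 9 were lower in A333fs than in C321fs. Of 60 called differences, 39 kept their call in every alternative fit in which the gene was tested, and none changed sign. Against control, 15 of 20 calls were kept in Splice del, 16 of 20 in C321fs and 5 of 12 in A333fs. Between A333fs and C321fs, 3 of 8 were kept. For this count, libraries were left out only from the pair of lines compared. The cause of these changes was not tested. At a few counts, depth limits IFI44L, RTP4, TRIM22, RSAD2 and XAF1.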
